A study of Mus musculus with 12 samples.

Results

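The 10 genes described here are 3 receptors of the EGF receptor family (Egfr, Erbb2 and Erbb3) and 7 of their ligands (Areg, Ereg, Epgn, Hbegf, Tgfa, Btc and Nrg1), found by gene symbol among the 55492 features of the count table. They were chosen by name, as a family, with earlier results of these data known. All 10 were among the 15052 genes that passed the filter on low counts and were tested. RNA-seq was made from CCN6KOT, a primary line from a spindle metaplastic mouse breast tumour, in 12 libraries of 4 groups with 3 libraries each. The design text asks which genes change when a dominant negative construct acting on beta-catenin signalling is expressed, and what happens when a rescue protein is added to it. The Vector group, whose titles also carry the unexpanded label PPGS, received a control lentivirus. The DNTCF4 group received a lentivirus with the dominant negative TCF4 construct. The DNTCF4_EZH2 and DNTCF4_SET groups received lentivirus labelled DNTCF4-EZH2 and DNTCF4-SET. The labels describe lentiviral transduction and puromycin for all 4 groups. They do not expand SET, and they give neither the species and sequence of the constructs nor the promoters that drive them. All 12 libraries rest on 1 line. The labels do not say that replicates came from separate cultures, so the p-values measure the spread between libraries, which may be technical. In bulk RNA, fewer cells of a type and less RNA per cell cannot be told apart.

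The EGF receptor family consists of receptor tyrosine kinases that pair at the cell surface when a ligand binds and pass the signal to RAS, ERK and PI3K. The ligands are made as membrane proteins, and metalloproteases of the ADAM family release most of them. In the mammary gland, amphiregulin acting on the EGF receptor drives the outgrowth of ducts, and ERBB2 is a known oncogene of breast cancer.

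In DNTCF4 against Vector, 6 ligand genes fell (Areg, Ereg, Epgn, Hbegf, Btc and Nrg1) and 1 rose, Tgfa, which reached 2.09 times its Vector level. Among the receptors Egfr rose 1.24-fold, while Erbb2 and Erbb3 did not pass the test. In total 8 of the 10 genes passed an adjusted p of 0.05 in edgeR's quasi-likelihood test (Benjamini-Hochberg over all genes tested), and 57.5% of all tested genes did so, 29.5% higher and 28% lower in DNTCF4. The groups did not overlap for 8 of the 10, against 59.3% of all genes tested. Nrg1 passed the filter only through Vector. Without it 7 of 9 genes passed, 5 of them lower, and the groups did not overlap for 7 of the 9. With a share of that size among all genes, the count by itself does not set the family apart, and the sizes and directions of the single genes are what the data give.

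The promoter table of RefSeq (GRCm38.p6) matched 6 of the 10 genes: Areg, Btc, Egfr, Epgn, Erbb2 and Tgfa. The 250 bases before the start site are shown for Areg (chr5:91139349-91139598, plus strand) and Tgfa (chr6:86194972-86195221, plus strand), the ligand gene with the highest level per kilobase of exon, which fell, and the 1 that rose. Capitals mark a match to the cAMP response element.

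Areg: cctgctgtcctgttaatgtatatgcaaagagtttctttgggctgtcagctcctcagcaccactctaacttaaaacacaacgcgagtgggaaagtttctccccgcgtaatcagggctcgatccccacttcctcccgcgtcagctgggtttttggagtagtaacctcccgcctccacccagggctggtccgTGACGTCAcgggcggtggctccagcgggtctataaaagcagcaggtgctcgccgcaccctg

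Tgfa: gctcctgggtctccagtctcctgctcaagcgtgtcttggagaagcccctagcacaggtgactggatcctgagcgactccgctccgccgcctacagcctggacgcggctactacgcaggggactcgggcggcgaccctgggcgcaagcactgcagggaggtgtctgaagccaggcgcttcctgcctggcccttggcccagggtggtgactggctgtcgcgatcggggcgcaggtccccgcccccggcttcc

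Both strands were searched for 3 motifs, over 300 bases from 250 before the start to 50 after it. They were the TCF motif CTTTGA, the AP-1 motif TGANTCA and the cAMP response element TGACGTCA, whose letters do not overlap in these promoters. Areg had 1 match to TGACGTCA, 61 bases before its start, and 1.79% of 32851 promoters hold that motif. The TCF motif is in 16.0% of promoters, and of the 6 genes Epgn had it, once, on the minus strand 44 bases after the RefSeq start. The AP-1 motif is in 7.81% of promoters and was in 0 of the 6. A match is a description of letters in this window. The Tgfa promoter is richer in G and C (70.7%) than that of Areg (59.3%).

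Egfr, on chromosome 11 (GRCm38, 16752203 to 16918158, plus strand), encodes the receptor that binds amphiregulin, TGF-alpha and HB-EGF, among other EGF-like ligands. Its level, in CPM (counts scaled to library size with TMM factors), was 37.8, 40.2 and 36.4 for Vector and 46.9, 48.4 and 46.3 for DNTCF4. It was 49.96, 50.01 and 48.7 in DNTCF4_EZH2 and 53.5, 52.6 and 50.6 in DNTCF4_SET. Every library with a DNTCF4 construct lay above every Vector library, and no pair of the 4 groups overlapped. The log2 change from Vector to DNTCF4 was 0.31 ± 0.05 (SE, n = 3 per group, adjusted p = 3.84e-05). The further step from DNTCF4 was 0.07 ± 0.04 in DNTCF4_EZH2 (adjusted p = 0.284) and 0.14 ± 0.04 in DNTCF4_SET (adjusted p = 0.0274). The DNTCF4_SET call was lost without DNTCF4 replicate 3, DNTCF4_SET replicate 1 or DNTCF4_SET replicate 2 (adjusted p 0.0854, 0.104 and 0.0867).

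Erbb2, on chromosome 11 (98412470 to 98437716, plus strand), encodes the family's receptor without a ligand of its own and the preferred partner of the others. It varied least of the 10, with group means that spanned 0.13 on the log2 scale. The Vector libraries held 32.6, 35.0 and 36.1 CPM and those of DNTCF4 33.5, 43.8 and 36.5. DNTCF4_EZH2 had 36.0, 39.0 and 37.3, and DNTCF4_SET 41.1, 37.4 and 35.2. The 4 groups overlapped. From Vector to DNTCF4 the log2 difference was 0.14 ± 0.08 (SE, adjusted p = 0.175), and without DNTCF4 replicate 1 it was 0.22 (adjusted p = 0.0147).

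Erbb3, on chromosome 10 (128567523 to 128589652, minus strand), encodes the neuregulin receptor with a weak kinase, which recruits PI3K. It was measured at 24, 38 and 36 counts in Vector, so counting error weighs more here. The Vector libraries held 0.904, 1.41 and 1.51 CPM and those of DNTCF4 1.07, 1.88 and 1.503. DNTCF4_EZH2 had 2.46, 2.09 and 2.46, and DNTCF4_SET 3.19, 2.48 and 2.79. Vector and DNTCF4 overlapped, and both groups with a further construct lay above them. Epcam, an epithelial marker, was low and had means of 0.215, 0.223, 0.679 and 0.745 CPM over the 4 groups in the same order. Other epithelial markers did not all follow it. Krt8 had 87.8, 83.0, 83.6 and 85.9 CPM, Krt18 229, 247, 255 and 243, and Krt19 22.2, 12.4, 17.8 and 16.8. Cdh1 had 0.797, 0.594, 0.889 and 1.01 CPM and Krt14 0.162, 0.113, 0.146 and 0.179. The part of these markers in the Erbb3 result was not tested. Against DNTCF4 the log2 change was 0.64 ± 0.21 in DNTCF4_EZH2 (SE, adjusted p = 0.0343) and 0.91 ± 0.21 in DNTCF4_SET (adjusted p = 0.00441). The DNTCF4_EZH2 call was lost without DNTCF4 replicate 1 or 3 or DNTCF4_EZH2 replicate 1 or 3 (log2 0.46, 0.65, 0.60 and 0.61, adjusted p 0.0994, 0.0761, 0.103 and 0.0989). The DNTCF4_SET call held without any 1 library (highest adjusted p 0.0245).

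**Figure D1:**
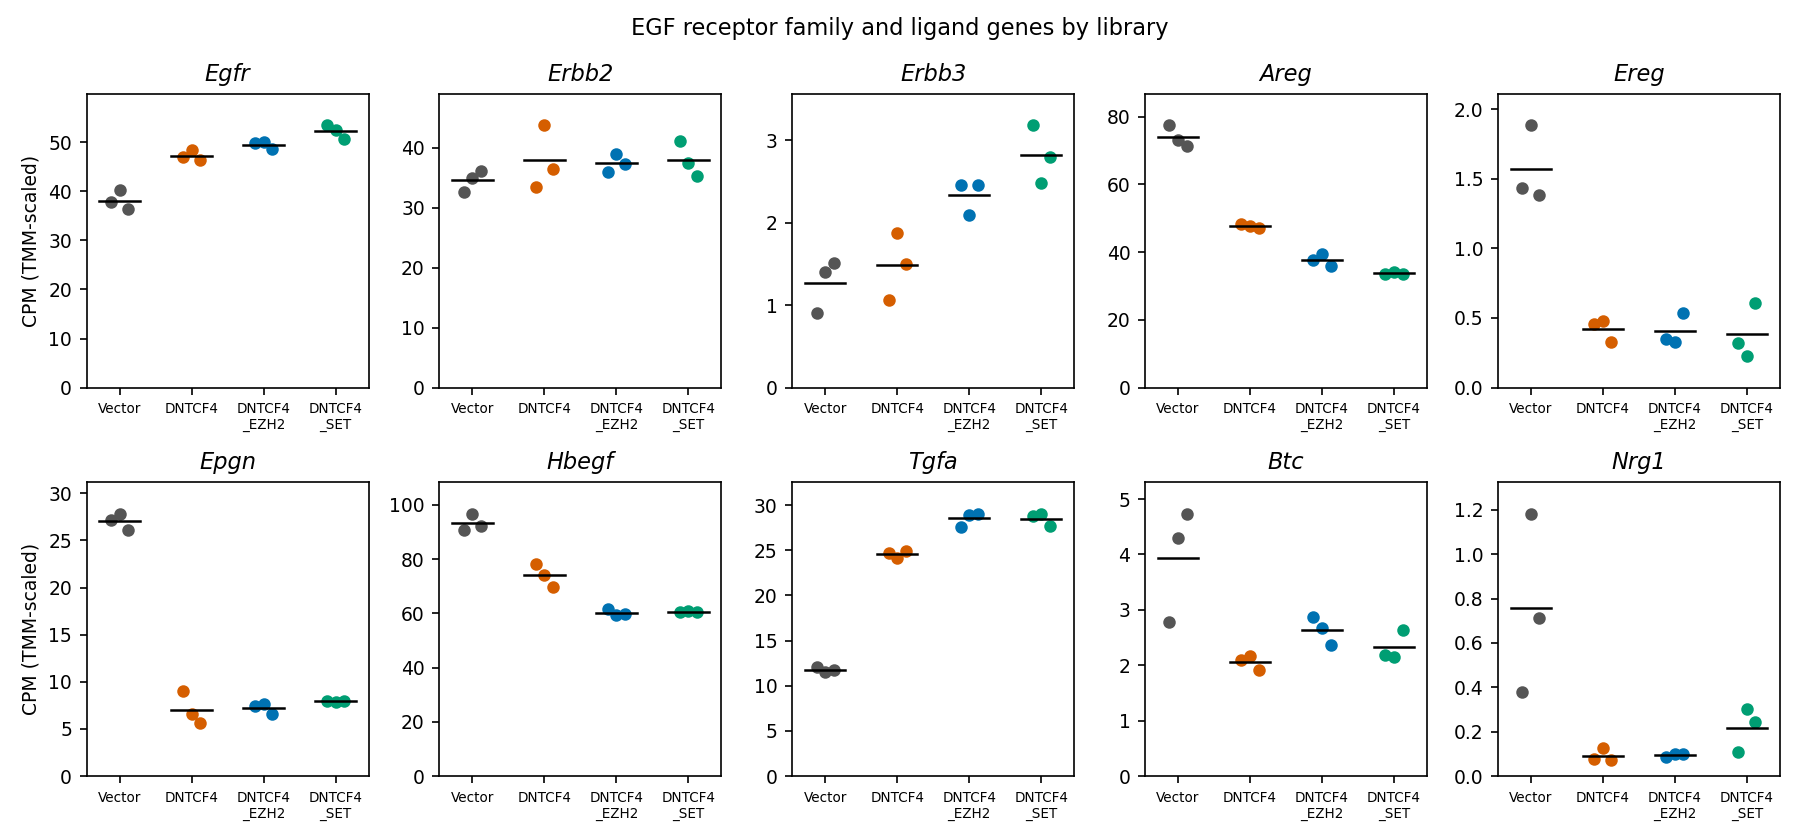
Each panel plots CPM (TMM-scaled) of 1 gene, with a point for each library and a line at the mean of its group of 3. Areg and Hbegf are lower and Tgfa higher in all 9 DNTCF4-construct libraries than in the 3 Vector libraries, while Erbb2 stays between 32.6 and 43.8 CPM throughout.

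Areg, on chromosome 5 (91139599 to 91148432, plus strand), encodes amphiregulin. It fell from 77.5, 73.2 and 71.3 CPM with the control virus to 48.2, 47.6 and 47.2 with DNTCF4. The DNTCF4_EZH2 libraries held 37.6, 39.3 and 35.9 CPM and the DNTCF4_SET libraries 33.4, 34.2 and 33.6. No 2 groups overlapped, and the order was Vector, DNTCF4, DNTCF4_EZH2, DNTCF4_SET from high to low. The log2 change was -0.63 ± 0.04 in DNTCF4 against Vector (SE, adjusted p = 1.07e-08). Against DNTCF4 it was -0.34 ± 0.05 in DNTCF4_EZH2 (adjusted p = 6.19e-05) and -0.50 ± 0.05 in DNTCF4_SET (adjusted p = 1.99e-06), 2 comparisons that share the DNTCF4 libraries. The 3 calls held whichever library was left out.

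Hbegf, on chromosome 18 (36504927 to 36515805, minus strand), encodes heparin-binding EGF, which also binds ERBB4. Its libraries held 90.7, 96.8 and 92.4 CPM in Vector and 78.3, 74.1 and 69.6 in DNTCF4. They held 61.5, 59.3 and 59.9 in DNTCF4_EZH2 and 60.4, 60.8 and 60.7 in DNTCF4_SET. Vector and DNTCF4 did not overlap, both groups with a further construct lay below DNTCF4, and those 2 groups overlapped each other. The log2 change was -0.33 ± 0.04 in DNTCF4 against Vector (SE, adjusted p = 1.28e-05), -0.30 ± 0.05 in DNTCF4_EZH2 against DNTCF4 (adjusted p = 0.000196) and -0.29 ± 0.05 in DNTCF4_SET against DNTCF4 (adjusted p = 0.000295).

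Tgfa, on chromosome 6 (86195223 to 86275719, plus strand), encodes TGF-alpha, the ligand closest to EGF in its use of the EGF receptor. It rose from 12.1, 11.5 and 11.8 CPM in Vector to 24.7, 24.1 and 24.9 in DNTCF4. In DNTCF4_EZH2 it stood at 27.6, 29.0 and 29.1 CPM and in DNTCF4_SET at 28.8, 29.05 and 27.7. All 3 DNTCF4-construct groups lay above Vector, and the EZH2 and SET groups lay above DNTCF4 and overlapped each other. The log2 change was 1.06 ± 0.05 against Vector (SE, adjusted p = 1.82e-10) and 0.21 ± 0.05 in each of DNTCF4_EZH2 and DNTCF4_SET against DNTCF4 (adjusted p = 0.00389 and 0.00427). Of Tgfa's exons, 118 bases overlap a gene on the other strand, and the sources used here do not give whether counting used strand.

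Epgn, on chromosome 5 (91027464 to 91035215, plus strand), encodes epigen, a ligand of low affinity for the EGF receptor. It fell from 27.2, 27.9 and 26.1 CPM in Vector to 8.998, 6.56 and 5.61 in DNTCF4, a 3.85-fold drop. Its levels were 7.48, 7.64 and 6.54 CPM in DNTCF4_EZH2 and 7.98, 7.86 and 7.95 in DNTCF4_SET. All 9 of these libraries lay far below Vector, and both groups with a further construct fell inside the DNTCF4 range. The log2 change against Vector was -1.94 ± 0.11 in DNTCF4 (SE, adjusted p = 1.08e-09), -1.90 ± 0.11 in DNTCF4_EZH2 (adjusted p = 1.03e-09) and -1.77 ± 0.11 in DNTCF4_SET (adjusted p = 2.36e-09). The difference between DNTCF4_SET and DNTCF4 was 0.17 ± 0.13 (adjusted p = 0.339), and 0.37 without DNTCF4 replicate 1, the highest DNTCF4 library (adjusted p = 0.00451).

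Btc, on chromosome 5 (91357261 to 91402994, minus strand), encodes betacellulin, which binds EGFR and ERBB4. The Vector libraries held 2.79, 4.29 and 4.74 CPM and those of DNTCF4 2.10, 2.17 and 1.91. DNTCF4_EZH2 had 2.87, 2.68 and 2.36, and DNTCF4_SET 2.18, 2.15 and 2.64. Vector replicate 1 stood well below the other Vector libraries and inside the range of DNTCF4_EZH2. The log2 change was -0.93 ± 0.18 in DNTCF4 against Vector (SE, adjusted p = 0.000421) and -0.57 ± 0.17 in DNTCF4_EZH2 against Vector (adjusted p = 0.0102). Without Vector replicate 3 the latter was -0.42 (adjusted p = 0.0631).

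Ereg, on chromosome 5 (91074622 to 91093646, plus strand), encodes epiregulin. Its counts were 38, 51 and 33 for Vector, 12, 15 and 9 for DNTCF4, 12, 10 and 16 for DNTCF4_EZH2, and 9, 6 and 20 for DNTCF4_SET. It reached the filter's 0.361 CPM in all 3 Vector libraries but in only 2, 1 and 1 of the others, in that order. In CPM the group means were 1.57 ± 0.277, 0.422 ± 0.0802, 0.406 ± 0.116 and 0.385 ± 0.198 (SD, n = 3). Every Vector library lay above every other library, and the other 3 groups overlapped. Against Vector the log2 change was -1.88 ± 0.32 in DNTCF4 (SE, adjusted p = 0.000146).

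Nrg1, on chromosome 8 (31814551 to 32884029, minus strand), encodes neuregulin 1, the ligand of ERBB3 and ERBB4. Its counts were 10, 32 and 17 for Vector, 2, 4 and 2 for DNTCF4, 3, 3 and 3 for DNTCF4_EZH2, and 3, 8 and 8 for DNTCF4_SET. Most libraries outside Vector were thus at or near the floor of 3 counts, which is 0.088 to 0.126 CPM. Nrg1 reached the filter's 0.361 CPM in the 3 Vector libraries and in 0 of the other 9, so it entered the test through the group where it is high, and a difference there had to follow. The fitted log2 value was -2.96 ± 0.53 in DNTCF4 against Vector (SE, adjusted p = 0.000214) and -2.46 without Vector replicate 2, which is 1.41-fold smaller (adjusted p = 0.00191). Exon overlaps with opposite-strand genes were 482 bases for Nrg1 and 141 for Ereg.

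Reads on 1768 olfactory and vomeronasal receptor genes, which sense odours and pheromones, moved with Nrg1. They summed to 93.7, 282 and 142 CPM for Vector, 45.8 to 54.5 for DNTCF4, 56.4 to 59.5 for DNTCF4_EZH2 and 60.6 to 88.8 for DNTCF4_SET. Vector replicate 2 had the most of both. Outside Vector Nrg1 lay near the floor, and DNTCF4 replicate 2 (0.127 CPM) was above all 3 DNTCF4_EZH2 libraries with fewer receptor reads. The part of these reads in the Nrg1 difference was not tested. For Ereg the library order within Vector was the same at its top (51 counts in replicate 2), whereas the Btc level of replicate 2 lay below that of replicate 3.

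**Figure D2:**
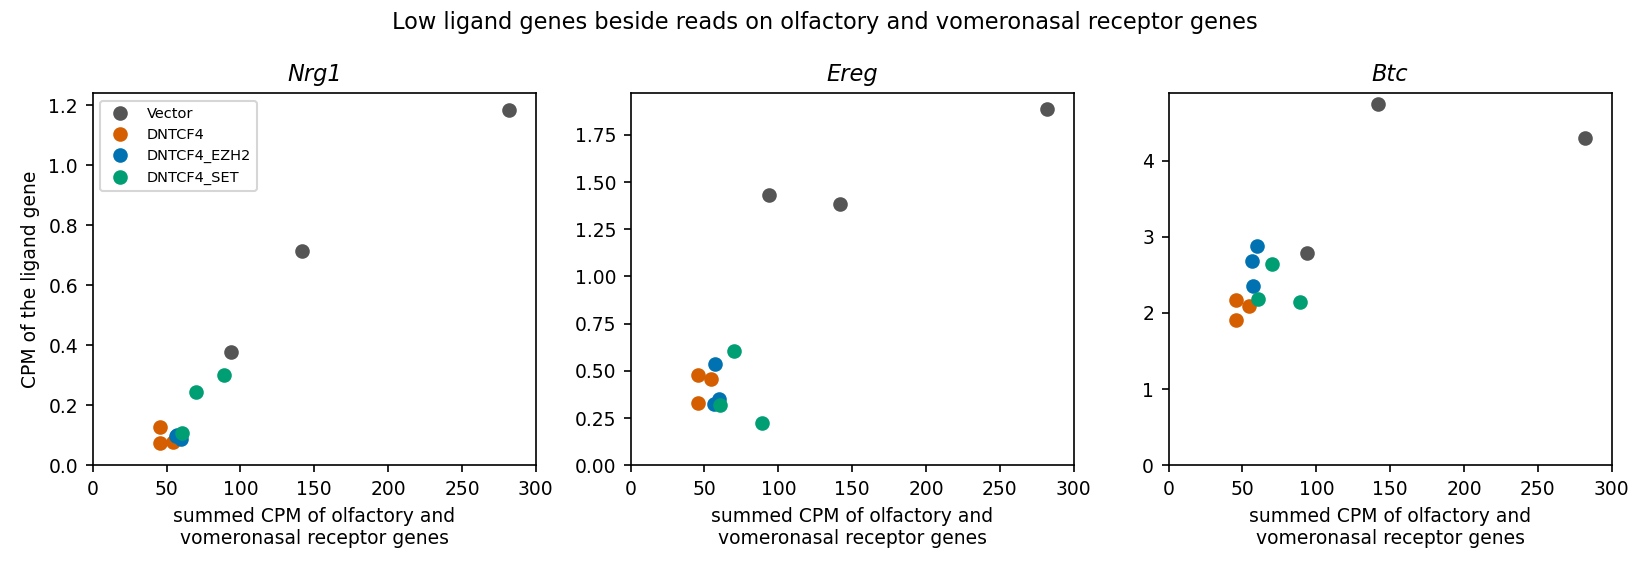
CPM of Nrg1, Ereg and Btc (vertical axes) is plotted against the summed CPM of olfactory and vomeronasal receptor genes (horizontal axis), 1 point per library coloured by group. The Vector library at 282 CPM of receptor reads has the highest Nrg1 level, 1.18 CPM.

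The ligand genes Epgn, Ereg, Areg and Btc lie side by side on chromosome 5 within 376 kb. The gaps between neighbours are 39.4, 46.0 and 209 kb and hold no other protein-coding gene. All 4 fell in DNTCF4 against Vector, by 1.94, 1.88, 0.63 and 0.93 on the log2 scale in that order along the chromosome. Against DNTCF4, Areg fell in DNTCF4_EZH2 and DNTCF4_SET, and the other 3 did not pass the test in either. Whether they differ from Areg was not tested. Their values in DNTCF4_EZH2 against DNTCF4 were 0.04 ± 0.13 for Epgn, -0.07 ± 0.38 for Ereg and 0.36 ± 0.18 for Btc (log2 ± SE), and the SE of Ereg spans the Areg value.

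Levels of different genes were compared per kilobase of exon (RPKM, CPM per kilobase of the union of GENCODE exons), a scale that depends on that length. In Vector the order was Areg 60.9 ± 2.64, Hbegf 19.3 ± 0.65, Epgn 14.97 ± 0.48, Erbb2 6.63 ± 0.346, Egfr 3.37 ± 0.173, Tgfa 1.81 ± 0.043, Btc 0.871 ± 0.226, Ereg 0.38 ± 0.0671, Erbb3 0.212 ± 0.0538 and Nrg1 0.0732 ± 0.0391 RPKM (SD, n = 3). No neighbours in that order overlapped. In DNTCF4 Epgn came down among Egfr and Tgfa, at 3.90 ± 0.968 RPKM against 4.17 ± 0.0964 and 3.79 ± 0.0656, and it overlapped both. In DNTCF4_EZH2 Tgfa and Egfr overlapped. In DNTCF4_SET the overlapping neighbours were Egfr and Tgfa, Tgfa and Epgn, and Btc and Erbb3.

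The sum over the 7 ligands fell from 98.3 ± 2.56 RPKM in Vector to 62.8 ± 2.29 in DNTCF4, 52.5 ± 1.68 in DNTCF4_EZH2 and 49.7 ± 0.335 in DNTCF4_SET (SD, n = 3). Areg made up 61.9%, 62.5%, 58.9% and 55.8% of it in that order, the largest share in each group. The share of Epgn went from 15.2% in Vector to 6.19% in DNTCF4, and that of Tgfa from 1.85% to 6.04%, then 8.39% and 8.84%. Per length there were 0.0298 Tgfa transcripts for each of Areg in Vector. The ratio was 0.0966 for DNTCF4, 0.142 for DNTCF4_EZH2 and 0.158 for DNTCF4_SET, and the ranges of the 4 groups did not overlap.

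**Figure D3:**
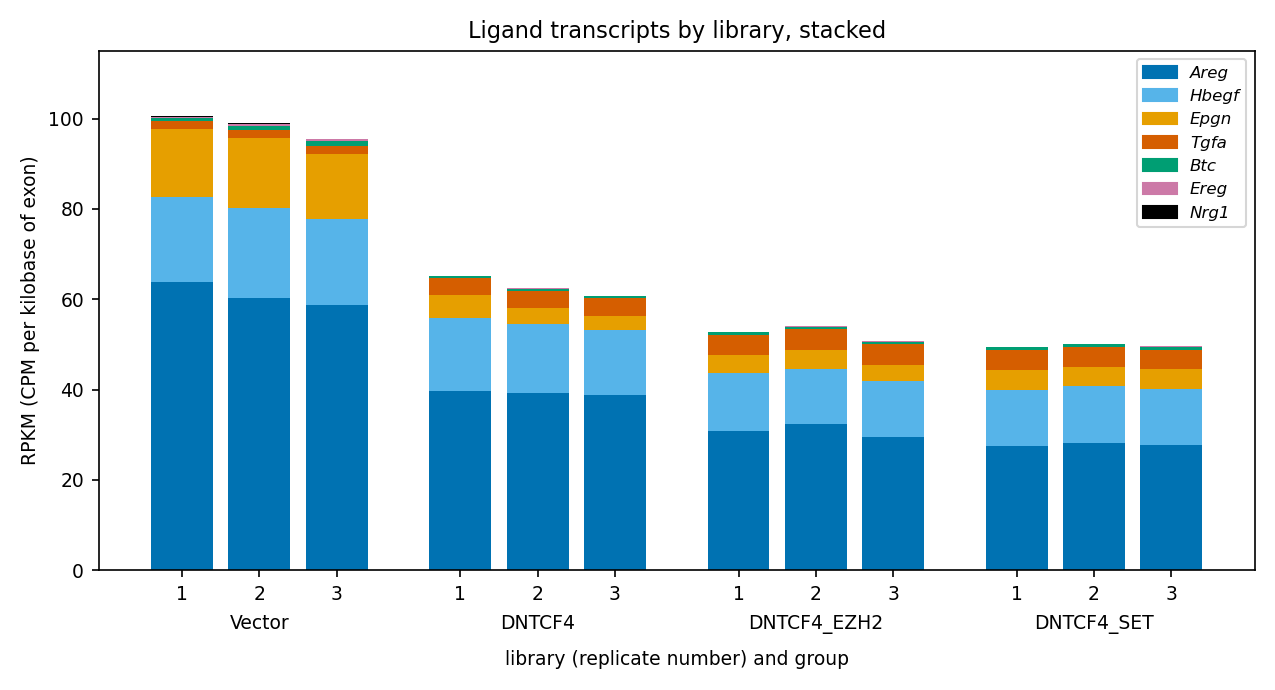
Stacked RPKM (CPM per kilobase of exon) of the 7 ligand genes, 1 bar per library, with the libraries grouped on the horizontal axis. The bars fall from a mean of 98.3 RPKM in Vector to 62.8 in DNTCF4, and the Epgn segment shrinks while the Tgfa segment grows.

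Adding a further construct to DNTCF4 changed fewer of the 10 genes. In DNTCF4_EZH2 against DNTCF4, 4 of the 10 passed (Erbb3 and Tgfa higher, Areg and Hbegf lower), and 25.5% of all tested genes did (13% higher, 12.5% lower). The groups did not overlap for 6 of the 10, against 39.1% of all genes. In DNTCF4_SET against DNTCF4, 5 passed (the same 4 genes and Egfr, higher), and 26% of all tested genes did (12.7% higher, 13.3% lower). Here 5 of the 10 did not overlap, against 37.2%. None of these changes reached 2-fold. For Areg, Hbegf and Tgfa the mean DNTCF4_EZH2 and DNTCF4_SET levels lay farther from Vector than the DNTCF4 level did.

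Between DNTCF4_EZH2 and DNTCF4_SET, edgeR called 0 of the 10 genes, with 5.16% of all tested genes called. Of all tested genes 3% were called higher and 2.17% lower in DNTCF4_EZH2. At an unadjusted p under 0.05 it was 1, Areg, and DESeq2 and limma on the rlog values also called 0. The groups did not overlap for 5 of the 10, against 31.8% of all genes tested. Areg was 0.16 ± 0.05 higher in DNTCF4_EZH2 on the log2 scale (SE, adjusted p = 0.0688), and passed when only these 6 libraries were fitted (0.15, adjusted p = 0.0396). Tgfa and Hbegf differed by 0.00 ± 0.05 and -0.01 ± 0.05, and Erbb3 by -0.27 ± 0.19 (log2 ± SE).

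Against Vector itself, 9 of the 10 genes passed in DNTCF4_EZH2, where 57.7% of all tested genes did (28.7% higher, 29% lower), and 9 in DNTCF4_SET, where 58% did (28.1% higher, 29.9% lower). The groups did not overlap for 8 and 9 of the 10, against 68.1% and 66.1% of all genes. In both, Egfr, Erbb3 and Tgfa were higher, the other 6 ligands lower, and Erbb2 did not pass. Ereg, Epgn, Tgfa and Nrg1 differed from Vector by 2-fold or more in DNTCF4, DNTCF4_EZH2 and DNTCF4_SET. In DNTCF4_SET Areg (2.19-fold lower) and Erbb3 (2.22-fold higher) did so as well. The share of all tested genes at 2-fold or more was not computed, so this does not set the family apart. Without Nrg1, 8 of 9 genes passed in each of DNTCF4_EZH2 and DNTCF4_SET, and the groups did not overlap for 7 and 8 of the 9. These 3 comparisons share the Vector libraries.

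**Figure D4:**
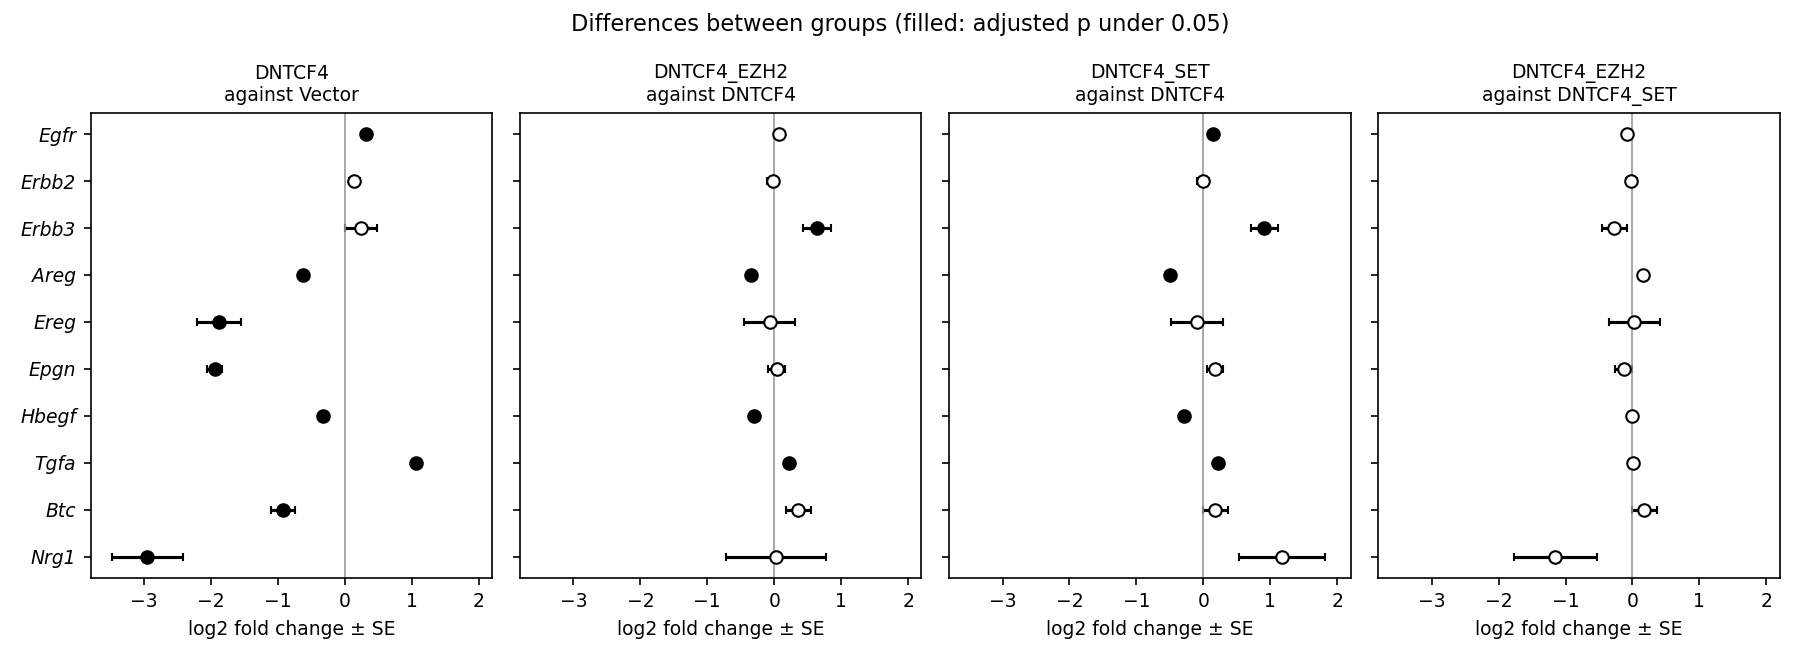
Log2 fold change with its SE for the 10 genes in 4 comparisons, filled where the adjusted p is under 0.05. In DNTCF4 against Vector 8 points are filled and Tgfa stands alone beyond 1 on the positive side, and between DNTCF4_EZH2 and DNTCF4_SET 0 are filled.

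The other 5 genes of the family were low. Erbb4 held 10 counts over the 12 libraries, and Nrg2 and Nrg3 held 6 and 4, so these were not tested. Egf, the founding ligand, and Nrg4, a ligand of ERBB4, were tested at 1.03 ± 0.131 and 0.222 ± 0.0958 CPM in Vector (SD, n = 3). In DNTCF4 against Vector edgeR called 0 of the 2 (log2 -0.41 and 0.98, adjusted p = 0.219 and 0.0923), also at an unadjusted p under 0.05. Without DNTCF4 replicate 3, Nrg4 passed (log2 1.3, adjusted p = 0.031). Nrg4 was higher in DNTCF4_EZH2 than in Vector (log2 1.253 ± 0.455, adjusted p = 0.0281), a call lost without Vector replicate 1 or any 1 of the DNTCF4_EZH2 libraries (adjusted p 0.113, 0.0514, 0.0526 and 0.0859). Egf was lower in DNTCF4_SET than in Vector (log2 -0.72 ± 0.28, adjusted p = 0.0385). It was lost without Vector replicate 1 or 2 or DNTCF4_SET replicate 1 or 2 (adjusted p 0.109, 0.0835, 0.123 and 0.129), and with the DESeq2 Wald test, no filter or only 6 libraries (0.0801, 0.075 and 0.0603).

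Ligand release is controlled by ADAM proteases, rhomboid-like proteins and the inhibitor TIMP3, and BACE1 is known to cleave neuregulin 1. Of 13 such genes 12 were tested, and in DNTCF4 against Vector 4 rose and 5 fell, where 57.5% of all genes passed (median log2 0.01, as for all genes tested). Timp3 fell from 382 to 135 CPM (log2 -1.498 ± 0.03, adjusted p = 1.91e-14), and Adam12, a protease that can release HB-EGF, rose from 4.37 to 11.03 CPM (log2 1.34 ± 0.08, adjusted p = 3.17e-09). In DNTCF4_EZH2 against DNTCF4, 8 rose and 1 fell, where 25.5% of all genes passed (median 0.17 against 0.00 for all genes). Those that rose include Timp3 itself, by 0.18 ± 0.03 (adjusted p = 0.00123). Adam10, the main protease for betacellulin and EGF, rose there by 0.29 ± 0.05 (adjusted p = 0.000665). That count was 5, all higher, without DNTCF4_EZH2 replicate 1 and without DNTCF4_EZH2 replicate 2. In DNTCF4_SET against DNTCF4, 5 rose and 1 fell, beside 26% of all genes called (median 0.10). The 1 that fell was Adam8, by 0.38 on the log2 scale (adjusted p = 0.000366).

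Among 23 adaptors and kinases below the receptors, 10 rose and 9 fell in DNTCF4 against Vector, beside 29.5% and 28% of all genes (median log2 0.06). Gab2, an adaptor that recruits PI3K, rose from 36.1 to 53.9 CPM (log2 0.58 ± 0.04, adjusted p = 8.43e-09), and Hras fell by 0.48 on the log2 scale (adjusted p = 3.53e-06). Against DNTCF4, 5 rose and 3 fell in DNTCF4_EZH2, and 3 rose and 1 fell in DNTCF4_SET, beside 25.5% and 26% of all genes called. The DNTCF4_EZH2 count of 8 was 3 to 5 without DNTCF4 replicate 3 or without any 1 of the DNTCF4_EZH2 libraries, and 2 with only the 6 libraries compared. The DNTCF4_SET count of 4 was 7 without DNTCF4 replicate 1 and 2 without DNTCF4_SET replicate 1.

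Of 22 negative regulators of the pathway, 8 rose and 6 fell in DNTCF4 against Vector (median log2 0.05), near the 57.5% of all genes called. Errfi1, which binds and inhibits the EGF receptor kinase, fell from 450 to 276 CPM (log2 -0.71 ± 0.03, adjusted p = 2.97e-11). Dusp6, an ERK phosphatase, fell by 0.66 on the log2 scale (adjusted p = 4.42e-10). Dusp5, which acts on nuclear ERK, rose by 0.58 ± 0.04 (adjusted p = 2.55e-08), and Cblb, a ubiquitin ligase of the receptors, by 0.72 ± 0.04 (adjusted p = 1.44e-09). Against DNTCF4, 5 rose and 6 fell in DNTCF4_EZH2, and 4 rose and 5 fell in DNTCF4_SET, beside 25.5% and 26% of all genes called. Dusp5 was lower in both, by 0.64 and 0.51 on the log2 scale (adjusted p = 4.34e-08 and 7.61e-07). Errfi1 and Dusp4, another ERK phosphatase, were lower in DNTCF4_EZH2 than in DNTCF4_SET by 0.18 and 0.20 on the log2 scale (adjusted p = 0.00235 and 0.00267). Between these groups 5.16% of all tested genes were called (3% higher, 2.17% lower).

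Of 19 genes that respond to ERK signalling, 7 rose and 8 fell in DNTCF4 against Vector, beside 29.5% and 28% of all genes (median log2 -0.08). Egr1, an immediate early transcription factor, fell from 91.3 to 32.8 CPM (log2 -1.48 ± 0.08, adjusted p = 3.89e-10). Ccnd1, cyclin D1, fell from 336 to 165 CPM (log2 -1.03 ± 0.04, adjusted p = 6.34e-12), and Ier3, a stress-response gene, rose from 1012 to 2214 CPM (log2 1.13 ± 0.04, adjusted p = 7.69e-12). In DNTCF4_EZH2 against DNTCF4, 2 rose (Egr1 and Ccnd1) and 4 fell, near the 25.5% of all genes called, and 10 genes passed without DNTCF4 replicate 1. In DNTCF4_SET against DNTCF4, 0 rose and 6 fell, beside 12.7% of all genes called higher and 13.3% lower. That count was 11 without DNTCF4 replicate 1, 3 without DNTCF4 replicate 3, 3 without DNTCF4_SET replicate 3 and 2 with only the 6 libraries compared. Between DNTCF4_EZH2 and DNTCF4_SET the list had 2 calls, both higher, beside 3% of all genes called higher and 2.17% lower. They were Egr1, by 0.65 ± 0.08 (adjusted p = 0.000245), and Ccnd1, by 0.18 ± 0.04 (adjusted p = 0.0118). Ccnd1 was lost there without DNTCF4_EZH2 replicate 3, DNTCF4_SET replicate 2 or DNTCF4_SET replicate 3 (adjusted p 0.0795, 0.0654 and 0.0609).

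**Figure D5:**
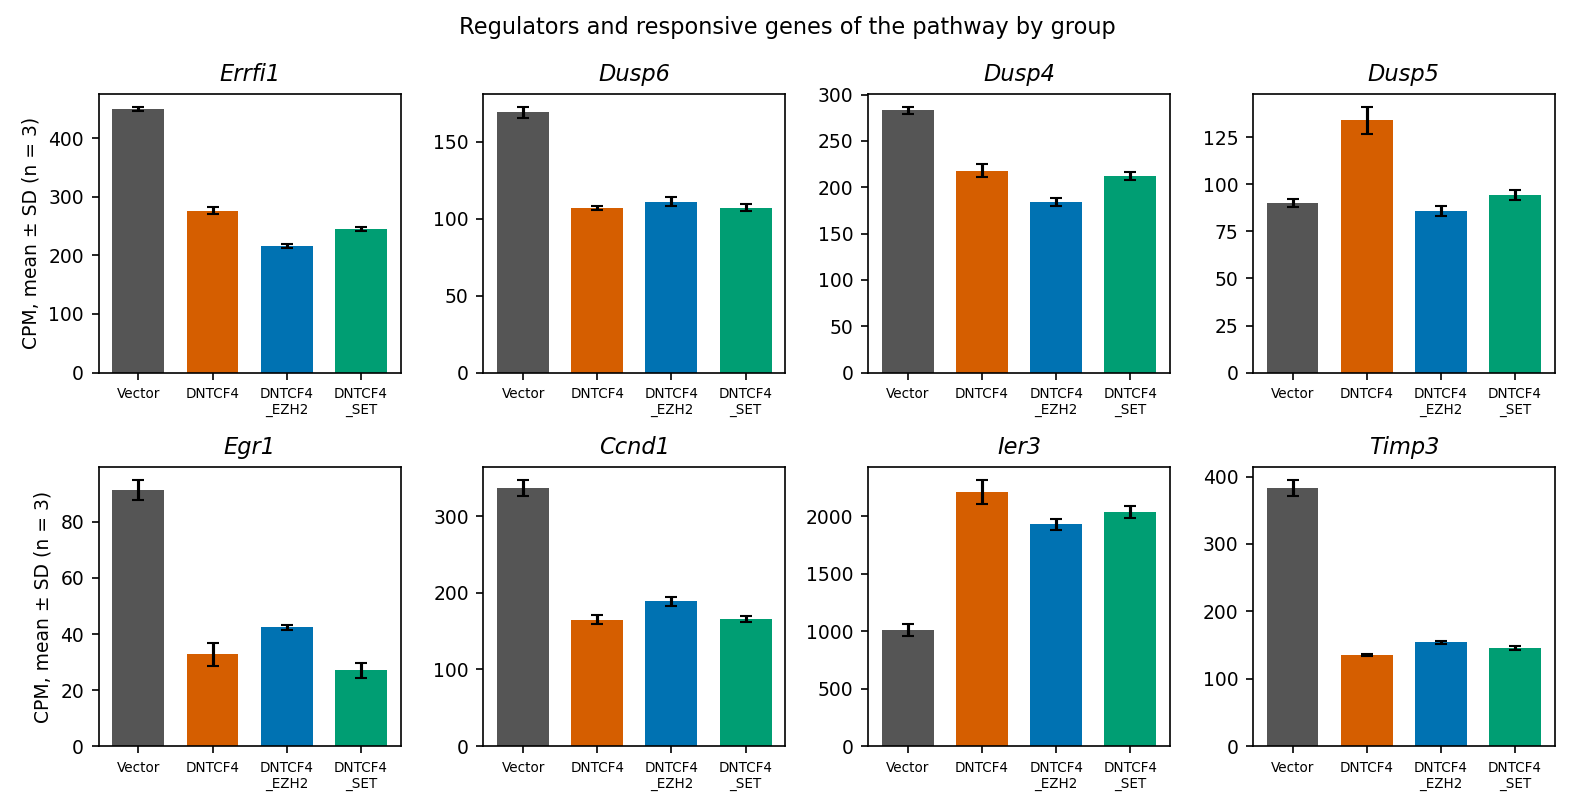
Bars give mean CPM with SD (n = 3) for 8 regulators and responsive genes in the 4 groups, on axes that start at 0. Errfi1, Egr1, Ccnd1 and Timp3 are lower in DNTCF4 than in Vector, Ier3 is higher, and Dusp5 is higher in DNTCF4 than in any other group.

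Epgn, Ereg and Nrg1 had the widest range of group means among the 10. The genes whose log2 CPM followed theirs most closely over the 12 libraries were listed by Pearson r as a description. They were sought among 1770 tested genes whose group means spanned at least 1 log2 unit, with predicted gene models left out. For Epgn they were Cav2 (0.989), Met (0.988) and Cav1 (0.988), which themselves lie together on chromosome 6 between 17281185 and 17573980. For Ereg they were Scnn1g (0.958), Tgfb3 (0.953) and Ncald (0.952), and for Nrg1 Rian (0.971), Scn3a (0.968) and Usp29 (0.964). The 12 points of each r fall mainly into Vector and the rest. By rank (Spearman) the values were lower, at 0.818, 0.748 and 0.727 for Epgn's genes and 0.895, 0.881 and 0.867 for Ereg's. For Nrg1's they were 0.914, 0.845 and 0.847. Nrg1 passed the filter only through Vector. Its 3 genes had means of 1.48, 1.26 and 1.45 CPM in Vector and at most 0.272 CPM elsewhere, so r there mainly restates that step.

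The libraries held 23597545 to 33999982 counts. Tcf7l2, which encodes TCF4, rose from 11.02 to 39.8 CPM in DNTCF4, and Ezh2 was 57.9, 65.4, 450 and 546 CPM in Vector, DNTCF4, DNTCF4_EZH2 and DNTCF4_SET, so the libraries labelled SET held the most Ezh2 reads. DNTCF4 replicate 1 stood apart from its group (chi-square per degree of freedom 20.7 and 13.1, against 3.34 between the other two), and the results it changes are given beside them. DNTCF4_EZH2 replicates 1 and 2 differed by 16.4, against 6.37 and 6.11 for the other pairs of that group. Of the line's markers, 7 epithelial genes summed to 326 to 370 CPM in all libraries, mostly Krt8 and Krt18, with Krt5 at 0 outside DNTCF4_EZH2. Krt19 had group means of 22.2, 12.4, 17.8 and 16.8 CPM. Of 7 mesenchymal genes Twist1 was at 0 throughout, and the sum, mostly Fn1, was 10400 to 11300 CPM in Vector and 4640 to 6070 elsewhere. Prrx1 was higher outside Vector (19.8 against 87.4, 103 and 116 CPM), as was the mean of Zeb1 (74.2 against 87.2, 80.6 and 84.0). The part of these genes in the ligand changes was not tested. Leukocyte markers summed to 44.8 to 71.7 CPM, nearly all Cd68, with Ptprc at most 0.397 CPM, and endothelial markers to 1.80 to 4.47 CPM.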

How the data were processed

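Total RNA of 12 libraries was sequenced, and the titles gave the group and number of each. The deposited table holds expected counts per gene, already whole numbers; a table of rlog values, which are regularised log2 counts, was also deposited, for 21754 genes. The submitters' processing notes name GRCm38, STAR 2.7.8a with RSEM 1.3.3, DESeq2, FastQC 0.11.8 and cutadapt 2.3, without order or settings. RSEM divides ambiguous reads between genes by a model, and the sources used here do not say whether strand was used.

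Genes were kept with filterByExpr (minimum count 10, minimum total 15) and tested with edgeR 4.0.16 in R 4.3.3: TMM scaling, 1 quasi-likelihood fit with 4 group means to all 12 libraries (8 residual degrees of freedom), two-sided, Benjamini-Hochberg adjustment, threshold 0.05. SE is the size of the log2 change divided by the square root of F. The scripts were tested on simulated data. Alternatives used DESeq2 1.42.0, limma 3.58.1 on the rlog values, other filters, a replicate block, only the 6 libraries compared, and each library left out. Named were the 10 genes, the construct genes, and up to 4 genes with the smallest p of each pathway list in a comparison. For the 3 genes of widest range, the 3 most similar patterns were named, on log2 CPM with a small constant added to CPM. The correlations of same-numbered libraries used log2 CPM with a prior count of 2. Members and lists were chosen with earlier results of these data known. The floor of 3 counts covers counting error only.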

Additional observations from a re-analysis of the deposited data

How the results depend on the processing

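Counts of family genes called were within 1.5 times the reported value in every comparison and alternative run, except that fitting only the 6 libraries of DNTCF4_EZH2 and DNTCF4_SET called 1 (Areg) in place of 0. Over all genes, fitting only 6 libraries gave 2532 calls in place of 3914 for DNTCF4_SET against DNTCF4 and 2177 in place of 777 between DNTCF4_EZH2 and DNTCF4_SET. Leaving out 1 library gave 359 to 439 for the latter. With those 6 libraries the pathway lists had 3 (shedding), 6 (adaptors, all lower), 4 (negative regulators) and 4 (ERK-responsive) calls in place of 1, 0, 2 and 2. The causes were not tested. The replicate number as a block left the family counts at 8, 4, 5, 0, 9 and 9 over the 6 comparisons and called 8584, 3713, 3736, 638, 8553 and 8592 genes. Same-numbered libraries did not deviate together (18 correlations from -0.091 to 0.151, 1 of them over 0.1), and in 0 of 6 comparisons did every library correlate best with its own number, so the numbers were not taken as pairs. A filter at a mean of 1 CPM removed Ereg and Nrg1 and left 6, 7 and 7 calls against Vector. With no filter the Egfr call in DNTCF4_SET against DNTCF4 was lost (adjusted p = 0.0942), and with only the 6 libraries those of Egfr there (0.0716) and Erbb3 in DNTCF4_EZH2 against DNTCF4 (0.056) were lost. Erbb2 passed with only 6 libraries in DNTCF4_EZH2 and DNTCF4_SET against Vector (log2 0.11 and 0.14, adjusted p = 0.0362 and 0.0372).

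Reversed signs occurred only for differences that passed no test. Erbb2 in DNTCF4_SET against DNTCF4 was 0.0108 with DESeq2 size factors, 0.0128 with the Wald test, 0.0118 on rlog values, 0.00134 with the replicate block and 0.00287 with 6 libraries. Tgfa between DNTCF4_EZH2 and DNTCF4_SET was -0.0105, -0.0104, -0.00675 (rlog) and -0.00293 (6 libraries), and Nrg1 in DNTCF4_EZH2 against DNTCF4 was -0.000125 on rlog values. Leaving out 1 library gave, in DNTCF4_EZH2 against DNTCF4, -0.11 to 0.34 for Nrg1, -0.11 to 0.10 for Erbb2, -0.31 to 0.061 for Ereg, -0.09 to 0.24 for Epgn and -0.03008 to 0.71 for Nrg4. In DNTCF4_SET against DNTCF4 it gave -0.55 to 0.19 for Nrg4, -0.092 to 0.11 for Erbb2 and -0.62 to 0.15 for Ereg. Between DNTCF4_EZH2 and DNTCF4_SET it gave -0.0704 to 0.0443 for Erbb2, -0.0246 to 0.00331 for Hbegf, -0.0199 to 0.027 for Tgfa, -0.22 to 0.55 for Ereg and -0.12 to 0.41 for Egf. Depth limits Ereg, Nrg1, Erbb3 and Btc, where 1 library holds 2 to 116 counts.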
